A study of Mus musculus with 13 samples.

Results

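Gene expression in 3 intestinal adenomas was compared with that in 6 samples of FP-low normal epithelium, which lay beside adenomas, on 9 of the 13 arrays of the study. The 9 arrays were chosen by their titles alone, and the other 4, of normal epithelium with high FP expression, were not used. All the mice were Apc mutants crossed with transgenic mice that express FPs. What FP stands for is not written in the labels, whose word for the normal group, FP-low, is kept. They also do not name the Apc allele, the promoter that drives FP expression, the age or which arrays share an animal. Every sample came from the small intestine and was taken as crypts with a glass capillary, and RNA was extracted per isolated crypt, amplified and hybridised to 1 Affymetrix Mouse Gene ST array each. Both groups carried the Apc mutation and the transgene, so the comparison is of tumour with normal epithelium within the mutant background. As the labels name no separate animals, each p-value refers to the spread among the arrays and may reflect mostly technical variation.

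The crypts of the small intestine hold dividing stem cells at their base, Paneth cells beside them that secrete antimicrobial proteins, and above them progenitors that turn into absorptive enterocytes, goblet, enteroendocrine and tuft cells. Wnt signals keep the stem cells dividing. Apc is part of the complex that marks beta-catenin (Ctnnb1) for destruction, and when the working copy is lost beta-catenin accumulates, Wnt target genes are switched on and an adenoma can form. Intestinal adenomas are known to express Wnt targets and stem cell genes, and, in several models, genes of fetal, regenerating or gastric epithelium.

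Both groups read as epithelium. Epcam, the epithelial adhesion molecule, had log2 levels of 9.03 to 9.58 in FP-low and 9.24, 9.26 and 9.33 in adenoma arrays, and Cdh17, an intestinal cadherin, at 9.67 to 10.55 and 10.39, 10.60 and 10.25. Other epithelial markers were less level: the keratins Krt8, Krt18 and Krt20 differed by 0.65, 0.97 and 2.16 (adenoma minus FP-low). Vil1, Cdx1 and Cdx2 differed by -0.15, -0.40 and -0.60. None of these differences passed the test described below. Over the 21789 probe sets with 1 gene symbol, array means lay at 4.87 to 4.90. Pairs of arrays correlated at r = 0.968 to 0.983 among adenomas, 0.944 to 0.981 among FP-low arrays and 0.908 to 0.969 between the groups. Apc itself read 5.42 to 6.12 and 6.39, 5.94 and 5.89, which does not check the labels because both groups carry the mutation. Xist, the RNA that silences an X chromosome in female cells, was at 9.71, 8.88 and 8.98 in the adenoma arrays, at 8.74 in FP-low replicate 6 and at 2.34 to 3.46 in the other 5 FP-low arrays. The Y-linked Eif2s3y was at 2.03, 2.22 and 2.01 in the adenoma arrays, at 2.07 in FP-low replicate 6 and at 5.21 to 6.87 in the others. The groups therefore differed in sex-linked transcripts as well as in being tumour or normal. By these transcripts the adenomas read as female and the other 5 FP-low arrays as male. Those 5 thus do not read as tissue from the mice of these adenomas. FP-low replicate 6 was the only normal array with high Xist.

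Adenomas had higher levels of annexins and S100 proteins (9 of 24 measured genes called higher), of genes of fetal and regenerating epithelium (8 of 18) and of some genes of the stomach (5 of 19). They had lower levels of a few enzymes and defence proteins of crypt cells, and 1 of 22 Wnt targets and none of 19 stem cell and 39 mitosis genes were called. The lists were chosen with earlier results of these data known, and some share members. Their counts are therefore not separate evidence. In all, adenomas differed from FP-low epithelium in 243 of the 21789 probe sets, 1.12% of those tested, at an adjusted p under 0.05 (limma with Benjamini-Hochberg adjustment), and such probe sets are termed called. Of these, 185 (0.849%, from 175 genes) were higher in adenomas and 58 (0.266%, from 54 genes) were lower. In all 243 the 3 adenoma arrays lay outside the range of the 6 FP-low arrays. Groups that do not overlap were found in 8.84% of all probe sets, 3.65% with the adenomas above and 5.19% with them below. Among probe sets called higher the median difference was 1.61 on the log2 scale, 66 exceeded 2, and 107 of the 185 lay below the median FP-low level of all probe sets, 4.62. Among those called lower the median difference was -1.14, 12 exceeded 2 in size and none of the 58 lay below that median level. Brightness also depends on the probes, and the table has no detection calls, so low levels cannot be told apart from background and no fold changes are given. The median difference over all probe sets was -0.06, and 38.8% of them had a higher adenoma mean, the rest a lower one.

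**Figure D1:**
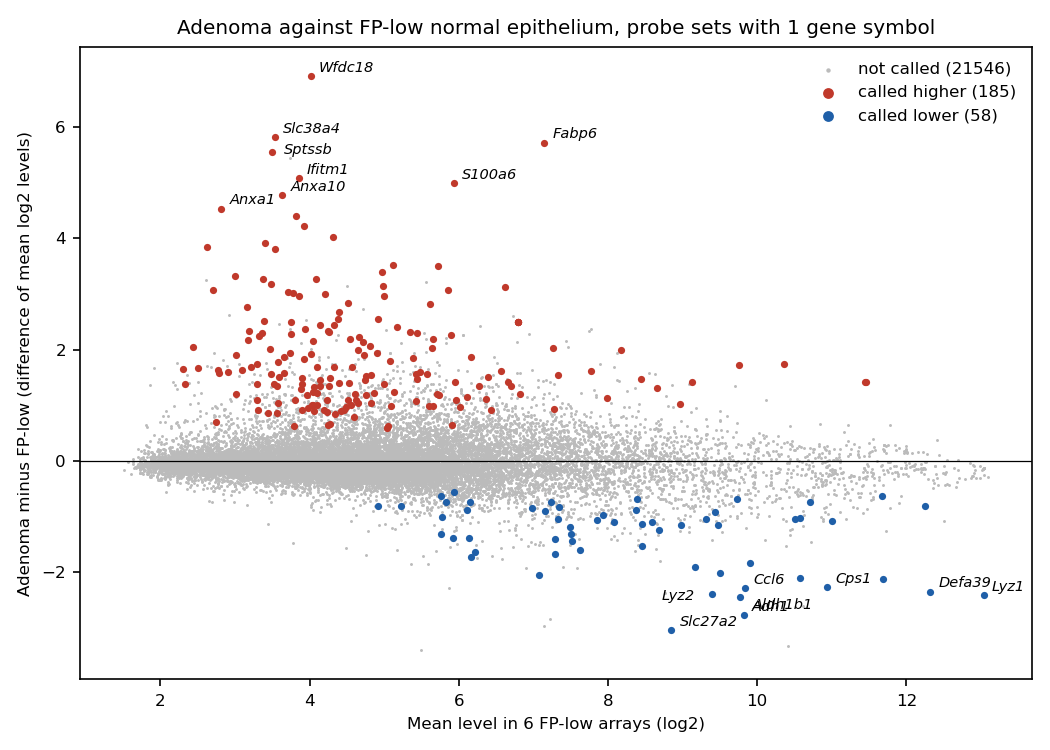
Difference of mean log2 level (adenoma minus FP-low, vertical axis) against the mean log2 level in the 6 FP-low arrays (horizontal axis), 1 point per probe set with 1 gene symbol, with 185 called higher in red, 58 called lower in blue and the others in grey. The red points gather at low FP-low levels and reach 6.92, and the blue points lie at higher levels and reach -3.04.

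The number of calls rests on single arrays. Without FP-low replicate 2 or 4 there were 152 or 148 calls, without adenoma replicate 1 or 2 there were 119 or 107, and without adenoma replicate 3 there were 99 lower calls in place of 58. With a term for high Xist, under which FP-low replicate 6 is the only normal array set against the adenomas, 27 probe sets were called, 16 of them among the 243. Of the 83 called genes described here, 13 kept their call with that term: Wfdc18, Slc38a4, Sptssb, Ifitm1, Anxa1, Ctse, Tmigd1, Serpinb5, Slc10a2, Anxa3, Il1rn, S100a11 and Errfi1. None of the 243 changed sign in these fits, which could not happen, as the groups do not overlap in any of them. Adenoma replicate 1 was the array farthest from the FP-low mean in 98 of the 185 higher and 32 of the 58 lower probe sets, and replicate 3 in 31 and 5.

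The largest difference was that of Wfdc18, which encodes a small secreted protein with a whey acidic protein domain. Its level was 11.62, 10.95 and 10.24 in adenoma replicates 1 to 3 and 3.70 to 4.23 (median 4.04) in FP-low arrays, a difference of 6.92 ± 0.25 (SE, adjusted p = 2.59e-06), with a gap between the groups far wider than the spread within either. Slc38a4, a sodium-coupled transporter of neutral amino acids, read 10.62, 9.33 and 8.10 against 3.29 to 3.91 (median 3.48) and differed by 5.82 ± 0.43 (SE, adjusted p = 0.000227). It was the only 1 of 14 measured amino acid transporters of growing cells called, where 0.849% of all probe sets were called higher. Sptssb, a small subunit of serine palmitoyltransferase, the enzyme that begins sphingolipid synthesis, read 8.79, 9.68 and 8.66 against 3.03 to 4.90 (median 3.24) and differed by 5.55 ± 0.41 (SE, adjusted p = 0.000227). FP-low replicate 1, at 4.90, was the highest normal array for this gene, yet below each adenoma. Of 33 sphingolipid genes measured, Sgms1, a sphingomyelin synthase (0.99 ± 0.19 SE, adjusted p = 0.0438), was also called and none was called lower, while the catalytic subunits Sptlc1, Sptlc2 and Sptlc3 differed by -0.02, 0.12 and 0.08 without a call. Sgms1 lost its call when FP-low replicate 1, 2, 3, 5 or 6 or adenoma replicate 1 or 2 was left out (adjusted p = 0.0696 to 0.158).

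Other genes with large differences stayed apart from the normal range in every adenoma. Ifitm1, an interferon-induced membrane protein, was read by 2 probe sets, which gave 10.11, 8.78 and 7.93 against 3.49 to 4.28 and 8.63, 7.65 and 6.91 against 5.29 to 5.62. Their differences were 5.09 ± 0.39 (SE, adjusted p = 0.000237) and 2.29 ± 0.29 (SE, adjusted p = 0.00628). Tmigd1, an adhesion protein of the brush border of epithelial cells, read 8.66, 8.06 and 7.73 against 3.69 to 4.49 and differed by 4.22 ± 0.23 (SE, adjusted p = 2.25e-05). The other 14 measured genes of brush border structure were not called. Serpinb5, a protease inhibitor of epithelia also known as maspin, read 7.04, 7.76 and 7.25 against 2.93 to 4.47 and differed by 3.82 ± 0.31 (SE, adjusted p = 0.000386). Mboat1, an acyltransferase of phospholipids, rose by 3.53 ± 0.33 (SE, adjusted p = 0.00103), and Tmem45a, a transmembrane protein, by 3.28 ± 0.35 (SE, adjusted p = 0.00224). Krt23, a type I keratin, rose by 3.51 ± 0.54 (SE, adjusted p = 0.0151), Gch1, which makes the first step of tetrahydrobiopterin synthesis, by 3.12 ± 0.54 (SE, adjusted p = 0.0248), and Ddah1, which breaks down methylated arginines, by 3.07 ± 0.45 (SE, adjusted p = 0.0113). Pgap1, which edits lipid anchors of membrane proteins, had 1 of its 2 probe sets called, at 3.15 ± 0.47 (SE, adjusted p = 0.0125), and the other at 3.14 ± 0.71 (SE, adjusted p = 0.0737). Bex1, an X-linked adaptor protein best known from neurons, varied most among these: it read 8.53, 7.62 and 5.79 in adenomas and 2.09 to 4.62 in FP-low arrays, and differed by 3.91 ± 0.68 (SE, adjusted p = 0.026). Krt23 lost its call when adenoma replicate 1 or 2 was left out (adjusted p = 0.0797 to 0.0856), Gch1 when FP-low replicate 4 or 5 or adenoma replicate 2 or 3 was (adjusted p = 0.0522 to 0.119) and Ddah1 when adenoma replicate 1 or 2 was (adjusted p = 0.05 to 0.0673). Pgap1 lost its call when adenoma replicate 2 was left out (adjusted p = 0.0744) and Bex1 when FP-low replicate 1, 2 or 6 or adenoma replicate 1 or 2 was (adjusted p = 0.0507 to 0.12).

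**Figure D2:**
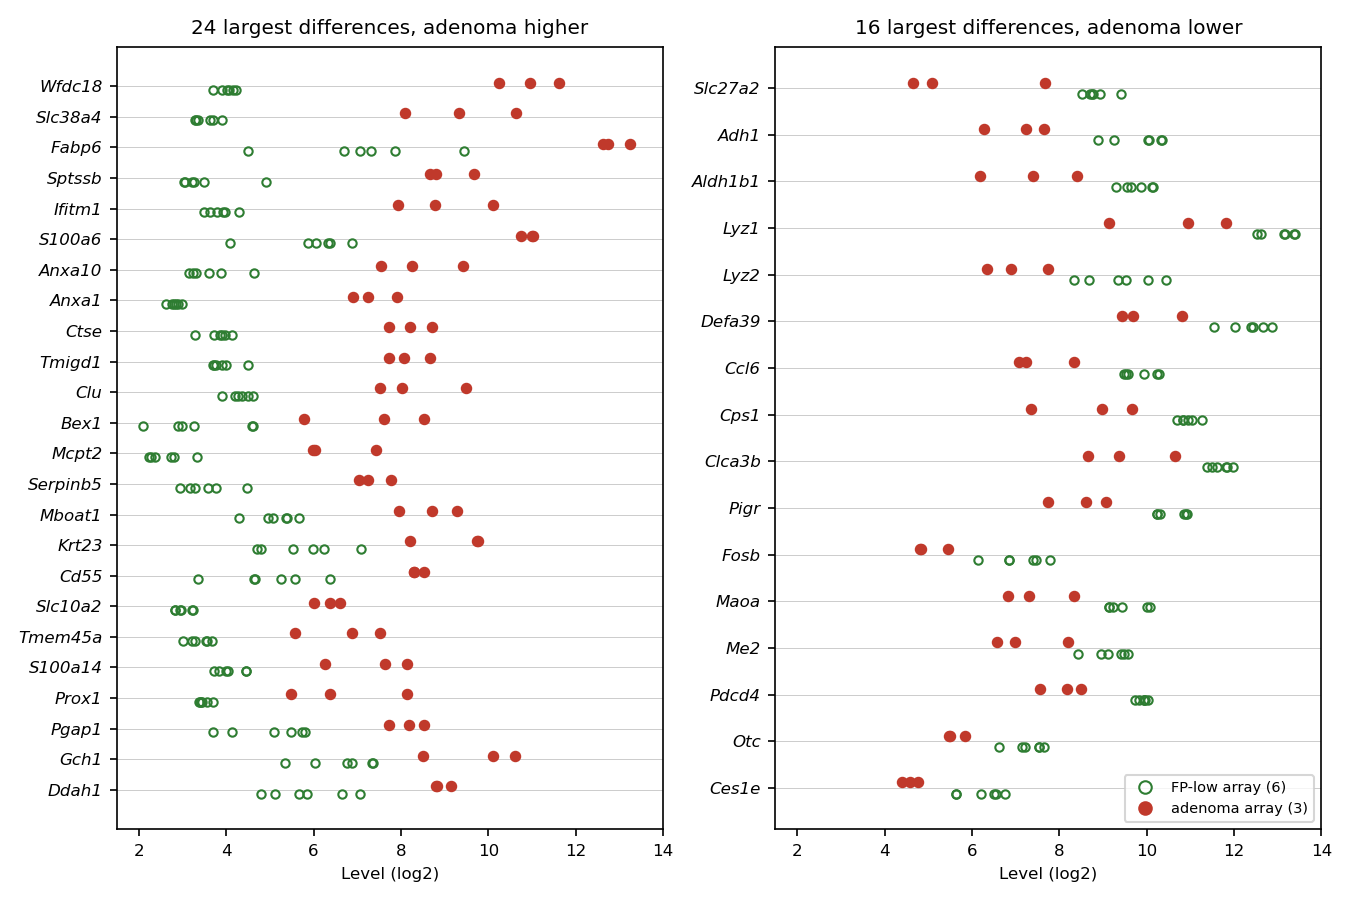
Log2 level (horizontal axis) of the 24 higher (left) and 16 lower (right) genes with the largest called differences, with 1 filled point for each of 3 adenoma arrays and 1 open point for each of 6 FP-low arrays. In each of the 40 genes the filled points lie outside the range of the open ones, and in genes such as Slc27a2, Lyz1 and Prox1 the adenomas spread more widely than the FP-low arrays.

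Annexins, which bind membrane phospholipids when calcium rises, and S100 proteins, small calcium sensors that often bind them, made up the list with the most calls. Of 24 measured members 9 rose and none fell, 22 had a higher adenoma mean, and the median difference was 1.01, beside -0.06 over all probe sets and 0.849% called higher. Among annexins, Anxa1 read 6.89, 7.25 and 7.91 in adenomas and 2.62 to 2.98 (median 2.82) in FP-low arrays and differed by 4.54 ± 0.20 (SE, adjusted p = 6.3e-06). The lowest adenoma stood far above the highest FP-low array. Anxa10, an annexin of gastric epithelium, read 7.55, 9.42 and 8.25 against 3.13 to 4.62 (median 3.45) and differed by 4.77 ± 0.42 (SE, adjusted p = 0.0006). Anxa3 read 6.48, 6.70 and 7.07 against 3.45 to 4.30 and differed by 3.03 ± 0.20 (SE, adjusted p = 0.000131). Anxa5, known for binding phosphatidylserine, rose by 2.96 ± 0.40 (SE, adjusted p = 0.0083), and Anxa8 rose by 2.77 ± 0.40 (SE, adjusted p = 0.0112) with adenoma values of 4.59, 6.27 and 6.91, the first of them closest to the normal range. Anxa2 was not called at 1.95 ± 0.45 (SE, adjusted p = 0.0782): adenoma replicate 1 read 8.96, beside 8.92 in the highest FP-low array. Anxa4 (0.24), Anxa7 (0.21), Anxa9 (-0.03), Anxa11 (-0.18) and Anxa13 (0.30) were not called either.

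Among S100 proteins, S100a6 read 10.76, 11.02 and 11.01 in adenomas and 4.09 to 6.88 (median 6.19) in FP-low arrays and differed by 5.0 ± 0.50 (SE, adjusted p = 0.0014). FP-low replicate 2, at 4.09, was well below the other 5, which lay at 5.87 to 6.88. The adenoma arrays lay closer together than the normal ones, also than those 5. S100a14 read 6.26, 7.63 and 8.14 against 3.72 to 4.45 and differed by 3.27 ± 0.36 (SE, adjusted p = 0.00243). S100a11 was bright in normal crypts, at 10.14 to 10.54, and brighter in adenomas, at 12.20, 12.03 and 12.04, a difference of 1.74 ± 0.12 (SE, adjusted p = 0.000152) with little spread in either group. S100a16 rose by 0.97 ± 0.19 (SE, adjusted p = 0.0456). S100g, the vitamin D dependent calcium carrier of enterocytes, ran from 4.80 to 10.25 in FP-low arrays and was not called (2.33 ± 0.98 SE, adjusted p = 0.31). S100a8 (0.91) and S100a9 (1.19), which are known from neutrophils, were not called. S100a16 lost its call when FP-low replicate 1, 2, 3, 5 or 6 or adenoma replicate 1, 2 or 3 was left out (adjusted p = 0.0589 to 0.154), Anxa5 when adenoma replicate 2 was (adjusted p = 0.052) and Anxa8 when adenoma replicate 2 was (adjusted p = 0.0673).

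Genes known from the fetal gut and from epithelium under repair were called in 8 of 18 measured members, all higher, with a median of 1.09. Of all probe sets 0.849% were called higher. The mean of the list per array was 4.46 to 4.57 in FP-low arrays and 5.83 to 5.94 in adenoma arrays, with no overlap. The list shares Anxa1 and Anxa3 with the annexins. Clu, a secreted chaperone that marks stem cells of regenerating crypts, read 9.48, 8.01 and 7.53 in adenomas and 3.91 to 4.61 (median 4.31) in FP-low arrays and differed by 4.03 ± 0.36 (SE, adjusted p = 0.0006). Il33, a cytokine released from damaged epithelium, read 7.46, 6.95 and 6.06 against 3.62 to 4.17 and differed by 2.97 ± 0.26 (SE, adjusted p = 0.0006). Cd55, which protects cells from complement, read 8.29, 8.52 and 8.29 against 3.34 to 6.37 and differed by 3.40 ± 0.52 (SE, adjusted p = 0.015). F3, tissue factor, rose by 1.94 ± 0.20 (SE, adjusted p = 0.00181), Il1rn, the inhibitor of the interleukin 1 receptor, by 1.35 ± 0.10 (SE, adjusted p = 0.000273) and Sprr1a, a cross-linked envelope protein of squamous epithelium, by 2.07 ± 0.24 (SE, adjusted p = 0.00385). Il1rn was the tightest of these, with adenomas at 5.60, 5.63 and 5.59. The members without a call included Krt7 (1.41 ± 0.38 SE, adjusted p = 0.118), the mesothelin gene Msln (-0.30) and the YAP targets Ccn1 (-0.85), Ccn2 (0.02) and Ankrd1 (-0.10). In the list of 19 YAP and TEAD genes, F3 and Myof, a membrane repair protein (1.24 ± 0.18 SE, adjusted p = 0.0102), were called higher, while Yap1 itself differed by 0.24 and the median was -0.02. Cd55 lost its call when adenoma replicate 1 or 2 was left out (adjusted p = 0.0635 to 0.0788) and Myof when adenoma replicate 2 was (adjusted p = 0.0611).

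Some genes of the stomach, an organ whose epithelium is not normally found in the small intestine, were higher in the adenomas. Of 19 measured genes of gastric epithelium 5 rose and none fell, with a median of 0.11: Anxa10 (above), Ctse, Vsig1, Tff2 and Gkn1. Of all probe sets 0.849% were called higher. Ctse, the aspartic protease cathepsin E of surface cells of the stomach, read 8.21, 8.71 and 7.73 in adenomas and 3.28 to 4.14 (median 3.88) in FP-low arrays and differed by 4.4 ± 0.23 (SE, adjusted p = 2.18e-05). Vsig1, a junction protein of gastric epithelium, read 5.85, 4.32 and 5.86 against 3.05 to 3.39 and differed by 2.17 ± 0.30 (SE, adjusted p = 0.00921), with adenoma replicate 2 nearest to normal. Tff2, a trefoil peptide of gastric mucus, read 5.56, 7.41 and 7.0 against 4.39 to 4.91 and differed by 2.0 ± 0.34 (SE, adjusted p = 0.0231). Gkn1, gastrokine 1, rose by 1.10 ± 0.14 (SE, adjusted p = 0.00628). Gkn3 differed by 3.22 ± 0.75 (SE, adjusted p = 0.081) and Muc6, a gland mucin, by 1.81 ± 0.49 (SE, adjusted p = 0.125), neither called. The surface mucin Muc5ac (0.04), the proton pump subunits Atp4a (0.00) and Atp4b (-0.16), Tff1 (0.28) and the stomach factor Sox2 (-0.27) were not called. Tff2 lost its call when FP-low replicate 1, 2 or 4 or adenoma replicate 2 or 3 was left out (adjusted p = 0.0507 to 0.0898).

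Bile acid uptake in the distal small intestine relies on Slc10a2, the apical transporter, on Fabp6, which carries bile acids through the cytosol, and on the pair Slc51a and Slc51b, which exports them. Slc10a2 read 6.61, 6.00 and 6.37 in adenomas and 2.82 to 3.23 (median 2.96) in FP-low arrays and differed by 3.33 ± 0.16 (SE, adjusted p = 1.07e-05), with both groups tight. Fabp6 read 12.63, 12.74 and 13.23 in adenomas, while the FP-low arrays ran from 4.5 to 9.44 (median 7.19), and it differed by 5.72 ± 0.82 (SE, adjusted p = 0.0102). Those 2 of the 15 measured genes of the list were called, both higher, beside 0.849% of all probe sets called higher. Slc51b differed by 2.30 ± 0.71 (SE, adjusted p = 0.172) and Slc51a by 1.02 ± 0.48 (SE, adjusted p = 0.366). Fgf15, the hormone that ileal cells release in response to bile acids, read 5.11, 5.43 and 5.55 against 5.18 to 5.42 and was not called. None of the 16 genes of the proximal small intestine was called, among them Gata4 (-0.20 ± 0.16 SE, adjusted p = 0.611). The labels give the small intestine and no position along it for either group, and the part of position in these values was not tested. Fabp6 lost its call when adenoma replicate 2 was left out (adjusted p = 0.0531).

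The 250 bases before the start site were searched for 3 short motifs on both strands in RefSeq promoters (GRCm38.p6), which resemble sequences known to be bound by AP-1, TCF/LEF and HNF4 factors. TGANTCA, the AP-1-like motif, was found in 11.8% of 187 windows of genes called higher, 8.7% of 46 windows of genes called lower and 6.75% of all 32851 windows. CTTTGAA or CTTTGAT, the TCF/LEF-like motif, was found in 4.28%, 2.17% and 7.48%, and CAAAGTCCA, the HNF4-like motif, in 0, 0 and 0.384%. Of the 20 genes with a window among the 24 with the largest increases, 4 held TGANTCA: Anxa10, Tmigd1, Serpinb5 and Slc10a2. Their windows are shown because they are the sequences behind that count, in the direction of transcription, with the matches in capitals. A match is a stretch of letters and not a measured binding site. The matches read TGAGTCA in Anxa10 and Tmigd1, TGAATCA in Serpinb5 and TGATTCA in Slc10a2. N stands for any base, so the percentages do not separate these forms. Genes with a match were not counted over all promoters. Fosb, an AP-1 subunit, was itself lower in adenomas, as given with the genes that fell.
Anxa10, chr8:62123194-62123443, minus strand: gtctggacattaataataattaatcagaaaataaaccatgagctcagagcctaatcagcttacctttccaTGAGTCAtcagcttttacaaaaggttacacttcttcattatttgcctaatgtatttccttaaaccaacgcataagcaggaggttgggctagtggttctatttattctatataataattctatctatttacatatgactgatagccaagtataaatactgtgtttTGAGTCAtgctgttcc
Tmigd1, chr11:76890870-76891119, plus strand: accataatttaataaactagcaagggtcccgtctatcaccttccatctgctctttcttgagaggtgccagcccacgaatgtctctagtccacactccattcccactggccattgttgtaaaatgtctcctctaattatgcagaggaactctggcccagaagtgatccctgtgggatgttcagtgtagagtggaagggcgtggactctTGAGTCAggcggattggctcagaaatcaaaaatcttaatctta
Serpinb5, chr1:106860925-106861174, plus strand: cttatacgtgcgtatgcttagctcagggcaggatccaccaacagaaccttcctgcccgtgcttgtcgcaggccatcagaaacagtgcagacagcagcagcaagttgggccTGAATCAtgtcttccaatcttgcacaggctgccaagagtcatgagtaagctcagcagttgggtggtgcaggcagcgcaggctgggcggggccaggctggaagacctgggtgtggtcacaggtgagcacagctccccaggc
Slc10a2, chr8:5105288-5105537, minus strand: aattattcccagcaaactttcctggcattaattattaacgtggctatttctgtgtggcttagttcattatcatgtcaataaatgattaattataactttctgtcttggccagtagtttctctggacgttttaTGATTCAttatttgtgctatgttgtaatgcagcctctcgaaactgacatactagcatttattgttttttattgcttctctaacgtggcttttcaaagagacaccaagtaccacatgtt

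Wnt pathway genes are read here against 1.12% of all probe sets called, a share at which few or no calls in lists of this size do not set a list apart. Of 22 measured Wnt targets 1 was called: Prox1, a homeobox factor known from intestinal tumours and from lymphatic vessels, which read 8.14, 6.37 and 5.48 in adenomas and 3.37 to 3.69 (median 3.44) in FP-low arrays and differed by 3.18 ± 0.44 (SE, adjusted p = 0.0091). The adenomas spread widely, replicate 1 being highest. The median of the list was 0.14. Cd44, a hyaluronan receptor, read 7.56, 7.33 and 7.80 against 5.49 to 6.98 and Lgr5, the receptor that marks crypt stem cells, 8.42, 7.02 and 7.10 against 5.72 to 6.92. All 3 adenomas lay above all 6 normal arrays for both, but neither passed the test, with differences of 1.40 ± 0.30 (SE, adjusted p = 0.0664) and 1.24 ± 0.36 (SE, adjusted p = 0.152). Sox9 (0.50 ± 0.24 SE, adjusted p = 0.378), Ascl2 (0.20 ± 0.22 SE, adjusted p = 0.71) and Myc (0.26) overlapped between the groups. None of 19 feedback inhibitors of Wnt signalling was called, with a median of -0.05. The one with the largest difference was Nkd1, which inhibits Dishevelled, at 8.14, 6.89 and 5.47 against 4.61 to 5.13 (2.04 ± 0.45 SE, adjusted p = 0.0671). Axin2, widely used as a readout of beta-catenin activity, read 5.90, 5.84 and 5.77 against 5.67 to 6.46 and differed by -0.25 ± 0.18 (SE, adjusted p = 0.565). Notum (0.17), Rnf43 (0.49) and Znrf3 (-0.08) were not called. None of 31 genes of the core pathway was called, including Ctnnb1 at 0.48 ± 0.19 (SE, adjusted p = 0.282).

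None of 19 crypt stem cell markers was called: 5 had a higher and 14 a lower adenoma mean, and the median was -0.30 (-0.14 with the term for high Xist). Of all probe sets 1.12% were called and 38.8% had a higher adenoma mean. Olfm4, a secreted glycoprotein of crypt base stem cells, was bright in FP-low arrays at 9.81 to 10.87 (median 10.56) and read 5.07, 6.65 and 9.58 in adenoma replicates 1 to 3. The 3 adenomas thus differed by several log2 units among themselves, replicate 3 lying just below the normal range, and the difference of -3.32 ± 0.76 (SE, adjusted p = 0.0768) did not pass. Prom1 differed by 1.26 ± 0.28 (SE, adjusted p = 0.0715) and Bmi1 by 0.95 ± 0.30 (SE, adjusted p = 0.183), neither called, and Smoc2 by -0.09.

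**Figure D3:**
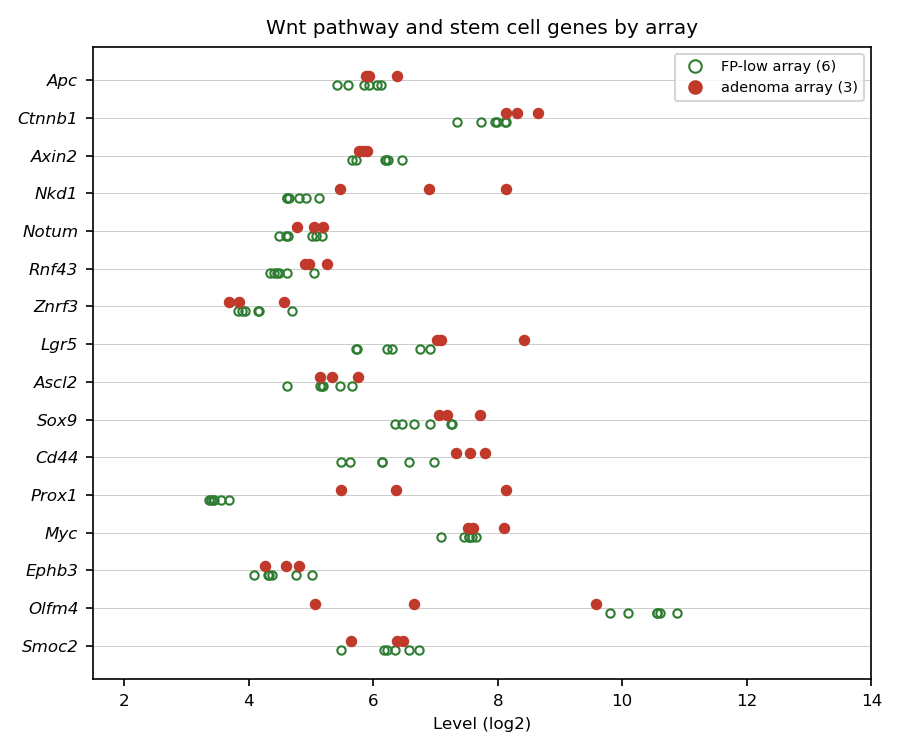
Log2 level (horizontal axis) of 16 Wnt pathway and stem cell genes, with 1 filled point for each of 3 adenoma arrays and 1 open point for each of 6 FP-low arrays. Prox1, Nkd1, Lgr5 and Cd44 lie above the normal range in all adenomas, Olfm4 lies below it, and Apc, Axin2, Notum, Znrf3 and Ascl2 overlap.

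The list of EGF ligands, receptors and feedback genes of ERK kinases had 4 of 23 measured members called, all higher, with a median of 0.13. Over all probe sets 0.849% were called higher. Errfi1, a feedback inhibitor of the EGF receptor, read 7.21, 8.14 and 7.65 in adenomas and 5.15 to 5.63 (median 5.31) in FP-low arrays and differed by 2.32 ± 0.19 (SE, adjusted p = 0.000467). Phlda1, an early response protein, read 9.17, 8.28 and 7.89 against 4.30 to 6.39 and differed by 2.83 ± 0.44 (SE, adjusted p = 0.0158). Etv5, an ETS factor induced by ERK, had 2 probe sets called, at 2.55 ± 0.43 (SE, adjusted p = 0.0234) and 1.22 ± 0.23 (SE, adjusted p = 0.0432). Btc, the ligand betacellulin, rose by 1.45 ± 0.28 (SE, adjusted p = 0.0411). The ligands Egf (-0.17), Tgfa (-0.05), Ereg (0.38) and Hbegf (-1.10) were not called. Phlda1 lost its call when adenoma replicate 1 or 2 was left out (adjusted p = 0.0673 to 0.0781), Etv5 when FP-low replicate 1 or 4 or adenoma replicate 1 or 2 was (adjusted p = 0.0513 to 0.114) and Btc when FP-low replicate 1, 2, 3, 4, 5 or 6 or adenoma replicate 1 or 3 was (adjusted p = 0.0507 to 0.18).

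Smaller numbers of calls came from other signalling lists, where 0.849% of all probe sets were called higher. Near that share, a single call does not set a list of this size apart. Hif1a, the oxygen-regulated transcription factor, read 9.51, 9.19 and 9.18 in adenomas and 6.76 to 7.82 in FP-low arrays and rose by 2.03 ± 0.24 (SE, adjusted p = 0.00361). Egln3, a prolyl hydroxylase of the same pathway, read 7.36, 7.85 and 6.44 against 3.37 to 5.04 and rose by 3.00 ± 0.42 (SE, adjusted p = 0.00943). They were the 2 called of 30 genes of hypoxia and glycolysis, whose median was 0.13, and the glucose transporter Slc2a1 was at 0.66 ± 0.21 (SE, adjusted p = 0.183). Ptger4, a receptor of prostaglandin E2, was the 1 called of 18 prostaglandin genes at 1.18 ± 0.18 (SE, adjusted p = 0.015), while the synthase Ptgs2 read 6.94, 4.85 and 4.35 against 3.76 to 4.41 and was not called. The proteases Mmp10 (2.45 ± 0.33 SE, adjusted p = 0.0083) and Ctsl (2.27 ± 0.34 SE, adjusted p = 0.0138) were the 2 called of 27 matrix proteases and inhibitors. Ifit1 (2.01 ± 0.18 SE, adjusted p = 0.0006) and Ifitm1 were the 2 called of 31 interferon-stimulated genes, with a median of 0.24. Wfdc17 (2.33 ± 0.28 SE, adjusted p = 0.00433) joined Wfdc18 among 15 WAP domain genes, and Lama3, a laminin chain (0.92 ± 0.16 SE, adjusted p = 0.026), joined Krt23 among 26 keratins and adhesion genes. Scd1, which desaturates fatty acids, rose by 2.30 ± 0.40 (SE, adjusted p = 0.0266) and was the 1 called of 26 genes of cholesterol and fatty acid synthesis. Nts, the gut hormone neurotensin, rose by 3.07 ± 0.44 (SE, adjusted p = 0.0109), with adenomas at 4.78, 7.30 and 5.25, and was the 1 called of 27 enteroendocrine genes, whose median was -0.15. Egln3 lost its call when adenoma replicate 1 or 2 was left out (adjusted p = 0.05 to 0.0563), Ptger4 when adenoma replicate 1 or 2 was (adjusted p = 0.0686 to 0.0757) and Mmp10 when adenoma replicate 2 was (adjusted p = 0.052). Ctsl lost its call when adenoma replicate 1 or 2 was left out (adjusted p = 0.0655 to 0.0713), Lama3 when FP-low replicate 1, 2 or 4 or adenoma replicate 1 or 2 was (adjusted p = 0.0522 to 0.125) and Scd1 when FP-low replicate 1, 4, 5 or 6 or adenoma replicate 1 or 2 was (adjusted p = 0.0508 to 0.115).

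**Figure D4:**
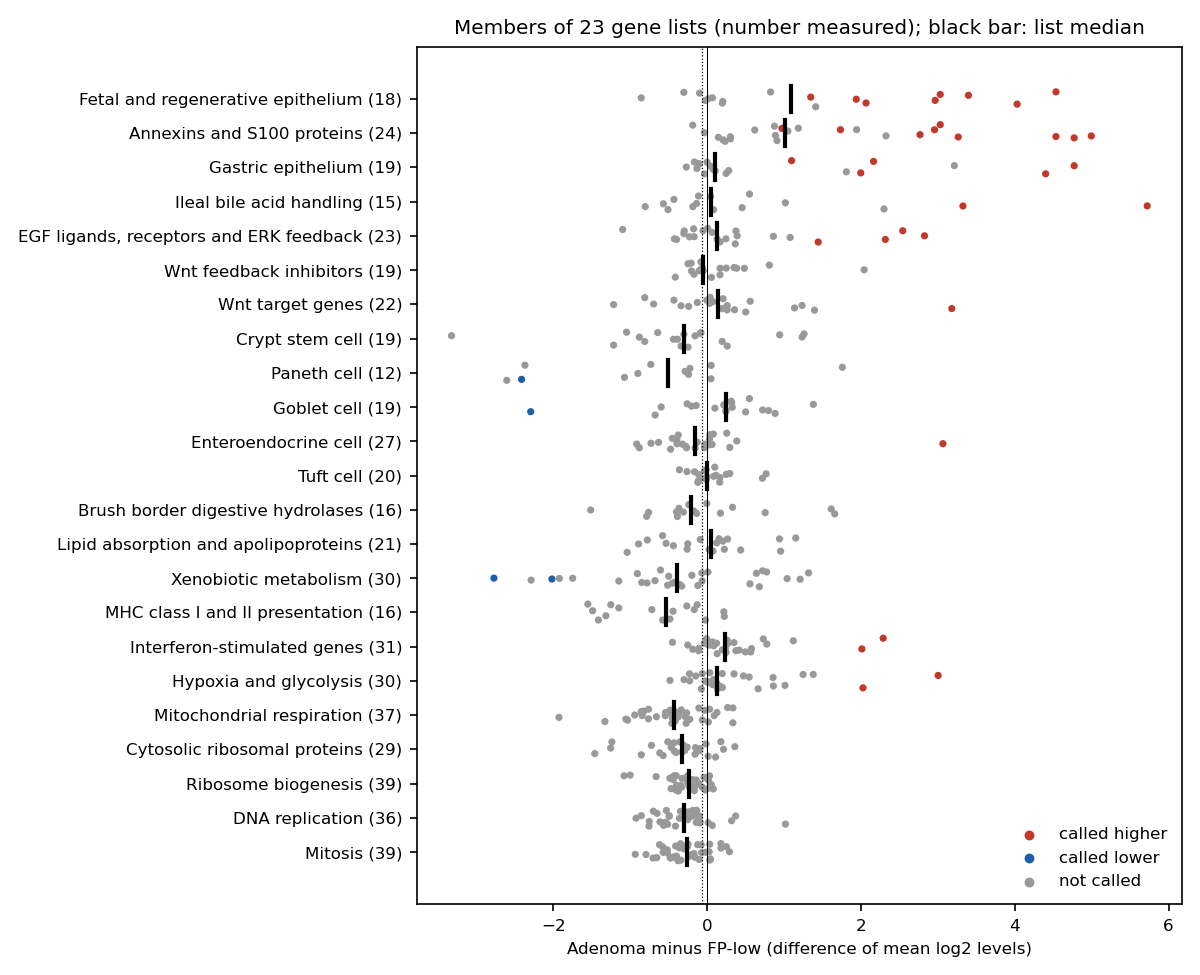
Difference of mean log2 level (adenoma minus FP-low, horizontal axis) for each measured member of 23 gene lists, 1 point per gene, red for called higher, blue for called lower and grey for not called, with a black bar at the median of the list and a dotted line at the median of all probe sets, -0.06. The fetal and annexin lists have medians near 1 and many red points, while the lists for stem cells, mitosis and ribosomal proteins hold grey points only.

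Lyz1, the lysozyme of Paneth cells, read 9.13, 10.94 and 11.81 in adenomas and 12.52 to 13.39 (median 13.16) in FP-low arrays and differed by -2.41 ± 0.48 (SE, adjusted p = 0.0497). It was the 1 called of 12 measured Paneth genes, of which 9 had a lower adenoma mean, with a median of -0.51. Of all probe sets 1.12% were called and 38.8% had a higher adenoma mean, the rest a lower one. Ang4 (-2.37 ± 0.54 SE, adjusted p = 0.0772) and Itln1 (-2.60 ± 0.61 SE, adjusted p = 0.0829), further Paneth products, lay below all normal arrays in all adenomas without passing, and Mmp7 (-0.24 ± 0.28 SE, adjusted p = 0.724) overlapped. Pla2g2a, a secreted phospholipase of Paneth cells, differed the other way by 1.76 ± 0.59 (SE, adjusted p = 0.209). Defa39, an alpha-defensin, read 9.43, 9.68 and 10.80 against 11.53 to 12.87 (median 12.41) and fell by 2.35 ± 0.34 on the log2 scale (SE, adjusted p = 0.0113). Lyz2, the close relative of Lyz1 in macrophages, was at 6.35, 6.90 and 7.75 against 8.35 to 10.43 (-2.39 ± 0.46 SE, adjusted p = 0.0441). Lysozymes, defensins, and likewise the Ifitm, Mcpt and Ces genes named elsewhere, are families of near-identical members, so that 1 probe set may read several of them. In whole samples such as these, fewer cells of a type and less RNA per cell cannot be told apart. Lyz1 lost its call when FP-low replicate 1, 2, 3, 4, 5 or 6 or adenoma replicate 1 or 2 was left out (adjusted p = 0.0589 to 0.137), Defa39 when adenoma replicate 1 or 2 was (adjusted p = 0.0592 to 0.0683) and Lyz2 when FP-low replicate 2, 3, 4 or 5 or adenoma replicate 1 or 2 was (adjusted p = 0.0579 to 0.194).

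Among 23 Reg lectins and secreted defence genes 2 fell, Pigr and Dmbt1, and 1 rose, Duoxa2, a maturation factor of the oxidase Duox2. Of the 23, 13 had a higher adenoma mean, and the median was 0.08. Of all probe sets 1.12% were called and 38.8% had a higher adenoma mean. Duoxa2 read 5.46, 5.10 and 5.61 in adenomas and 4.36 to 4.70 in FP-low arrays and differed by 0.79 ± 0.13 (SE, adjusted p = 0.0234). Pigr, the receptor that carries IgA across the epithelium, read 9.08, 7.73 and 8.62 in adenomas and 10.23 to 10.92 (median 10.58) in FP-low arrays and differed by -2.10 ± 0.29 (SE, adjusted p = 0.0091). Ccl28, a chemokine that draws IgA-producing cells, fell, at -1.53 ± 0.29 (SE, adjusted p = 0.0379), with adenomas at 6.77, 6.42 and 7.58 against 7.90 to 8.94. Ccl6, a chemokine listed here with goblet cells, read 7.08, 7.25 and 8.33 against 9.49 to 10.29 and differed by -2.29 ± 0.30 (SE, adjusted p = 0.00628). Clca3b, of the calcium-activated chloride channel regulator family, was at -2.12 ± 0.35 (SE, adjusted p = 0.0212), and Dmbt1, a mucosal scavenger receptor, at -1.08 ± 0.20 (SE, adjusted p = 0.0379). The mucin of goblet cells, Muc2, was not called at 0.72 ± 0.32 (SE, adjusted p = 0.339), nor were Tff3 (-0.14) and Agr2 (0.32). Of 19 goblet genes 13 had a higher adenoma mean, with a median of 0.25 that was 0.00 with the term for high Xist. Of 16 genes for antigen presentation on MHC molecules 14 had a lower adenoma mean, with a median of -0.53, but none was called. H2-Aa read 5.19, 5.72 and 4.65 against 5.96 to 7.42 (-1.55 ± 0.35 SE, adjusted p = 0.0747) and Cd74, the invariant chain, differed by -1.49 ± 0.31 (SE, adjusted p = 0.0611). With the term for high Xist the median of that list was -0.13. Duoxa2 lost its call when FP-low replicate 4 or adenoma replicate 1 or 3 was left out (adjusted p = 0.0565 to 0.113), Ccl28 when FP-low replicate 1, 2, 4, 5 or 6 or adenoma replicate 1 or 2 was (adjusted p = 0.0621 to 0.167) and Clca3b when FP-low replicate 4 or adenoma replicate 1 or 2 was (adjusted p = 0.0544 to 0.103). Dmbt1 lost its call when FP-low replicate 1, 2, 3, 4 or 6 or adenoma replicate 1 or 3 was left out (adjusted p = 0.0584 to 0.173).

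Several metabolic enzymes fell. Slc27a2, which activates long fatty acids, had the largest decrease: it read 5.08, 4.66 and 7.67 in adenomas and 8.52 to 9.40 (median 8.76) in FP-low arrays and differed by -3.04 ± 0.55 (SE, adjusted p = 0.0313). Adenoma replicate 3 was near the normal range and the other 2 far below it. Adh1, an alcohol and retinol dehydrogenase, read 6.27, 7.64 and 7.24 against 8.88 to 10.35 (median 10.05) and differed by -2.77 ± 0.39 (SE, adjusted p = 0.00943). Aldh1b1, a mitochondrial aldehyde dehydrogenase of crypt cells, read 6.18, 7.40 and 8.40 against 9.31 to 10.15 and differed by -2.44 ± 0.40 (SE, adjusted p = 0.021). Cps1 and Otc, which carry out the mitochondrial steps of the urea cycle and of citrulline synthesis in enterocytes, read 7.35, 8.99 and 9.65 against 10.70 to 11.27 and 5.49, 5.47 and 5.85 against 6.61 to 7.66. Their differences were -2.28 ± 0.40 (SE, adjusted p = 0.0269) and -1.68 ± 0.22 (SE, adjusted p = 0.00732). Oat, which feeds the same pathway with ornithine, fell by 1.16 ± 0.20 (SE, adjusted p = 0.0234). The mitochondrial enzymes Me2 (-1.91 ± 0.36 SE, adjusted p = 0.0376), Maoa (-2.01 ± 0.34 SE, adjusted p = 0.0231), Idh2 (-1.05 ± 0.18 SE, adjusted p = 0.0229) and the isocitrate dehydrogenase subunit Idh3g (-1.05 ± 0.14 SE, adjusted p = 0.00753) were lower too. Slc27a2 lost its call when FP-low replicate 1, 2, 3, 4, 5 or 6 or adenoma replicate 1 or 2 was left out (adjusted p = 0.0529 to 0.148), Aldh1b1 when FP-low replicate 2 or 4 or adenoma replicate 2 was (adjusted p = 0.0504 to 0.0856) and Cps1 when FP-low replicate 1, 2, 3, 4 or 5 or adenoma replicate 2 was (adjusted p = 0.0538 to 0.0838). Oat lost its call when FP-low replicate 2 or 4 or adenoma replicate 1 or 2 was left out (adjusted p = 0.0515 to 0.111), Me2 when FP-low replicate 1, 2, 3, 4 or 5 or adenoma replicate 1 or 2 was (adjusted p = 0.0631 to 0.163) and Maoa when FP-low replicate 4 or adenoma replicate 1 or 2 was (adjusted p = 0.0535 to 0.11). Idh2 lost its call when FP-low replicate 2 or 4 or adenoma replicate 1 or 2 was left out (adjusted p = 0.0535 to 0.113).

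Adh1 and Maoa were the 2 called of 30 genes of xenobiotic metabolism, of which 21 had a lower adenoma mean, with a median of -0.39 that was -0.09 with the term for high Xist. That share is near the one over all probe sets, of which 38.8% had a higher adenoma mean. Cyp3a11 read 3.52, 3.78 and 3.45 in adenomas and 4.52 to 7.37 in FP-low arrays and was not called (-2.29 ± 0.63 SE, adjusted p = 0.126). Ces1e, a carboxylesterase, fell by 1.63 ± 0.26 (SE, adjusted p = 0.0184), with 4.76, 4.57 and 4.41 against 5.63 to 6.75, and 13 of 15 measured carboxylesterases had a lower adenoma mean (median -0.18, and 0.00 with that term). In retinoid metabolism Rdh10, which makes retinal, rose by 1.62 ± 0.24 (SE, adjusted p = 0.0113) while Adh1 fell, 19 of 25 members having a lower adenoma mean (median -0.28, and -0.10 with the term for high Xist). Vdr, the vitamin D receptor, read 6.09, 5.65 and 5.93 against 6.80 to 7.82 and differed by -1.39 ± 0.23 (SE, adjusted p = 0.0217). It was the 1 called of 28 intestinal transcription factors, and Hnf4a (-0.86 ± 0.29 SE, adjusted p = 0.209), Nr5a2 (-1.40 ± 0.30 SE, adjusted p = 0.0613) and Cdx2 (-0.60 ± 0.28 SE, adjusted p = 0.352) were not. Pdcd4, an inhibitor of translation known as a tumour suppressor, read 8.17, 7.56 and 8.49 against 9.73 to 10.04 (median 9.93) and differed by -1.83 ± 0.18 (SE, adjusted p = 0.0014). Fosb read 4.83, 5.45 and 4.80 against 6.13 to 7.79 and differed by -2.05 ± 0.33 (SE, adjusted p = 0.0193), and 21 of 26 AP-1 and immediate early genes had a lower adenoma mean (median -0.37), with Atf3 at -1.77 ± 0.48 (SE, adjusted p = 0.126). With the term for high Xist that median was -0.07: the list mean relative to FP-low was -0.47 in FP-low replicate 6, beside -0.45, -0.38 and -0.55 in the adenomas. Ces1e lost its call when adenoma replicate 1, 2 or 3 was left out (adjusted p = 0.0533 to 0.0851), Rdh10 when adenoma replicate 1 or 2 was (adjusted p = 0.0617 to 0.0676) and Vdr when adenoma replicate 1, 2 or 3 was (adjusted p = 0.05 to 0.109). Fosb lost its call when adenoma replicate 1 or 3 was left out (adjusted p = 0.0549 to 0.0947).

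Digestive enzymes of mature enterocytes were not called, and normal arrays differed widely in them. Sis, sucrase-isomaltase, ran from 5.54 in FP-low replicate 6 to 10.40 in FP-low replicate 1 and read 8.82, 8.31 and 8.34 in adenomas. None of 16 brush border hydrolases and none of 21 genes of lipid absorption passed. Per array, the mean of the hydrolases was 5.11 to 6.75 in FP-low arrays and 5.84 to 6.16 in adenoma arrays. The median difference of the hydrolases was -0.20 and became 0.51 with the term for high Xist, under which FP-low replicate 6, the lowest normal array for Sis, is the normal reference.

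The lists for cell division, ribosomes and mitochondrial respiration held no called gene, where 1.12% of all probe sets were called and 38.8% had a higher adenoma mean. Of 39 mitosis genes 31, and of 36 DNA replication genes 31, had a lower adenoma mean, with medians of -0.26 and -0.30. Mki67, a marker of cycling cells, read 7.53, 6.99 and 7.18 in adenomas and 6.96 to 8.44 in FP-low arrays (-0.47 ± 0.28 SE, adjusted p = 0.479). Of 29 cytosolic ribosomal proteins 24 and of 39 ribosome biogenesis genes 33 had a lower adenoma mean (medians -0.32 and -0.23), as did 30 of 37 genes of mitochondrial respiration (median -0.42). The median of mitosis genes was -0.51 with the term for high Xist, and that of ribosomal proteins -0.17 after quantile normalization. Cdkn2a, which marks arrested cells, read 4.34, 4.33 and 4.33 against 4.45 to 4.71 (-0.23 ± 0.10 SE, adjusted p = 0.335). In the list of CDK inhibitors and p53 targets Igfbp7, a secreted binding protein, was the 1 called of 29, at 1.00 ± 0.16 (SE, adjusted p = 0.0157). Igfbp7 lost its call when adenoma replicate 1 or 2 was left out (adjusted p = 0.059 to 0.0617).

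A few markers of cells other than epithelium were called, and their part in the results was not tested. Over all probe sets 1.12% were called and the median difference was -0.06. The medians of the fibroblast, smooth muscle, endothelium and mast cell lists were near that, at -0.05, -0.07, -0.06 and -0.06. For fibroblasts and matrix, 2 of 23 were called, Sparc (1.39 ± 0.26 SE, adjusted p = 0.0381) and Fn1 (1.34 ± 0.22 SE, adjusted p = 0.0212), and the list mean was 4.2 to 4.42 in FP-low arrays and 4.35 to 4.75 in adenoma arrays. The collagens Col1a1, Col1a2 and Col3a1 differed by -0.07, -0.28 and -0.06, and Dcn by 2.46 ± 0.53 (SE, adjusted p = 0.0645). For smooth muscle 2 of 15 were called, Tpm2 (1.10 ± 0.13 SE, adjusted p = 0.00361) and Rgs5 (1.10 ± 0.21 SE, adjusted p = 0.0381), with list means of 3.95 to 4.23 in FP-low arrays and 4.04 to 4.43 in adenoma arrays. For endothelium 2 of 17 were called, Cdh5 (0.88 ± 0.17 SE, adjusted p = 0.0489) and Prox1, with list means of 4.10 to 4.28 in FP-low arrays and 4.27 to 4.56 in adenoma arrays. Pecam1 (-0.15) and Lyve1 of lymphatic vessels (0.11) were not. For mast cells Mcpt2, a protease of mucosal mast cells, read 5.98, 7.42 and 6.02 against 2.22 to 3.33 (median 2.55) and differed by 3.85 ± 0.35 (SE, adjusted p = 0.000691), the 1 called of 15. Mcpt1 read 4.95, 5.28 and 2.75 against 2.39 to 3.00, the mast cell receptor subunits Fcer1a (-0.01) and Ms4a2 (-0.06) were not called, and list means were 3.22 to 3.57 in FP-low arrays and 3.44 to 3.80 in adenoma arrays. Of 23 T cell markers Ptprc, carried by all white blood cells, was called (1.00 ± 0.16 SE, adjusted p = 0.0197) and Cd3d, Cd3e and Cd3g were not (-0.67, -0.17 and -0.09). Of 23 macrophage markers Lyz2 was called, lower, and Csf1r and Adgre1 differed by 0.10 and -0.05. None of 16 neutrophil, 17 B and plasma cell, 12 enteric neuron and glia, 20 tuft cell and 5 red blood cell markers was called. Sparc lost its call when FP-low replicate 1, 2, 3, 4 or 6 or adenoma replicate 1 or 3 was left out (adjusted p = 0.054 to 0.0827), Fn1 when FP-low replicate 2 or 4 was (adjusted p = 0.0518 to 0.0535) and Rgs5 when FP-low replicate 1, 2, 3, 4, 5 or 6 or adenoma replicate 1 or 2 was (adjusted p = 0.0561 to 0.154). Cdh5 lost its call when FP-low replicate 1, 2, 3, 4, 5 or 6 or adenoma replicate 1 or 2 was left out (adjusted p = 0.0513 to 0.201) and Ptprc when adenoma replicate 1 or 3 was (adjusted p = 0.0512 to 0.0982).

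The 3 adenomas were not alike in these markers. Relative to the FP-low mean, the fibroblast list was at 0.43, 0.22 and 0.03 in adenoma replicates 1 to 3, the endothelium list at 0.35, 0.22 and 0.06 and the neutrophil list at 0.62, 0.20 and -0.10. Replicate 1 was the highest and replicate 3 the lowest in these 3 lists. A single gene can weigh on such a mean. The endothelium list holds Prox1, at 8.14, 6.37 and 5.48 in adenoma replicates 1 to 3 and 3.37 to 3.69 in FP-low arrays. Likewise the neutrophil list holds Lcn2, at 8.79, 6.07 and 4.55 in adenoma replicates 1 to 3 and 4.41 to 4.93 in FP-low arrays. The median differences of the fibroblast, endothelium and neutrophil lists were -0.05, -0.06 and 0.01. In others replicate 2 was the highest, as in the T cell list (-0.15, 0.02 and -0.32) and the B and plasma cell list (0.08, 0.29 and 0.06). Genes with the widest spread among adenomas within the called ones were Slc27a2, Bex1, Lyz1, Prox1 and Nts, with SDs of 1.63, 1.40, 1.37, 1.35 and 1.34. In Bex1 and Prox1 replicate 1 was farthest from normal and replicate 3 nearest, in Lyz1 likewise, and in Slc27a2 and Nts replicate 2 was farthest.

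**Figure D5:**
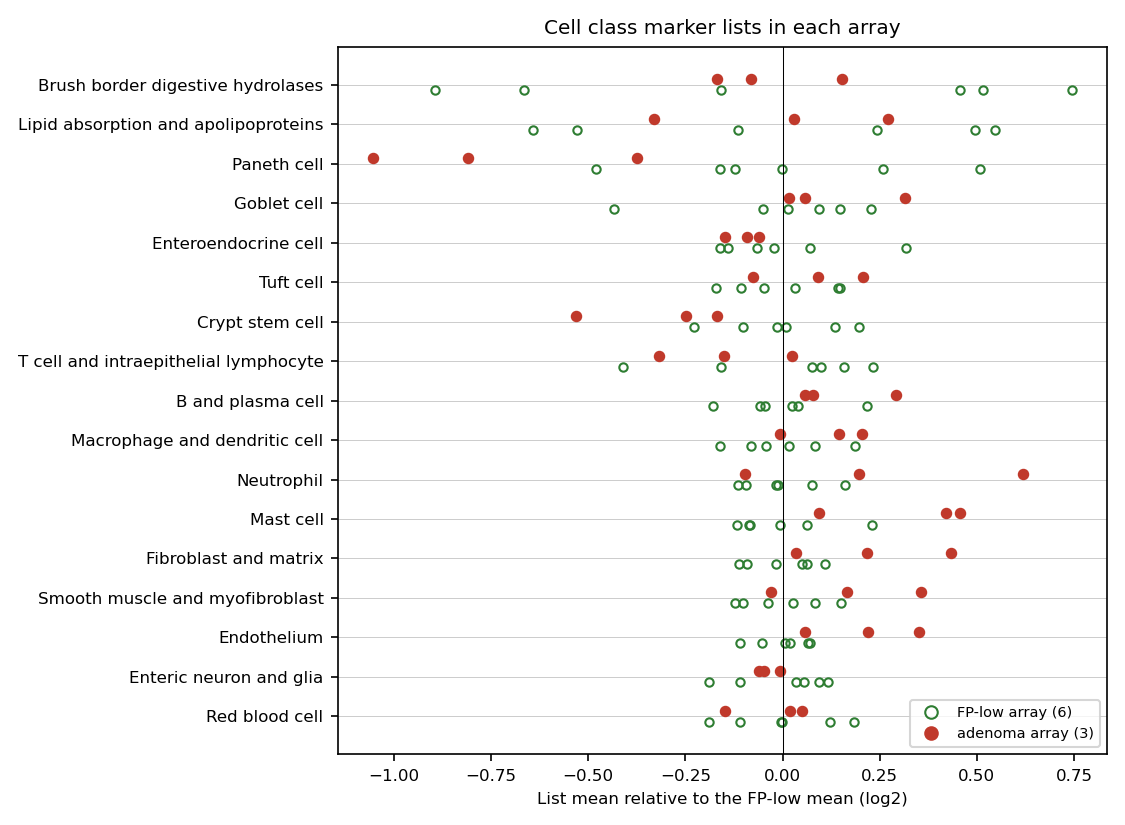
Mean of each marker list per array relative to the mean of the 6 FP-low arrays (log2, horizontal axis), with 1 filled point for each of 3 adenoma arrays and 1 open point for each of 6 FP-low arrays. FP-low arrays spread from -0.90 to 0.75 in brush border hydrolases, the Paneth cell list lies lower in adenomas with an overlap of the groups, and the fibroblast list reaches 0.43 in 1 adenoma.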

How the data were processed

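RNA of each sample was read on 1 Affymetrix Mouse Gene ST array. The deposited table holds log2 levels for 35556 probe sets, which the authors made with Affymetrix software (Command Console per the series' design text, and Transcriptome Analysis Console with Expression Console per the submitters' processing notes). For its versions, the background correction, normalization and summarisation, no statement is given in the sources used here. That values are log2 follows from their range. The platform annotation gave exactly 1 gene symbol to 21789 probe sets, several to 1621 and none to 12146. Only the first were tested.

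The 9 arrays were fitted with limma 3.58.1 (R 4.3.3), lmFit and eBayes, with no filter, covariate or further normalization, and p-values were adjusted by Benjamini-Hochberg over all 21789 probe sets. The procedure was tested on simulated data. The number of arrays limits the precision. Alternatives were quantile normalization, median centring, a filter at a mean log2 level of 5, all probe sets, all 13 arrays, a replicate block, array weights, a trended robust variance, a test against a 1.5-fold change, a term for Xist above a log2 level of 6, and leaving out each array.

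The members and the 59 gene lists were chosen with earlier results of these data known. Genes were named as the 24 higher and 16 lower with the largest called differences, the called members of each list (up to 6), up to 3 defining members and the member with the largest difference not called, a few fixed genes, and the 5 called genes most variable among adenomas. Anxa5, Anxa7, Anxa8, Anxa9, Anxa11, Anxa13, S100a16, Sprr1a, Msln, Yap1, Atp4a, Atp4b, Sox2, Myc, Notum, Rnf43, Znrf3, Prom1, Smoc2, Cd74, Oat, Idh2, Idh3g, Lyve1, Fcer1a, Ms4a2, Epcam and Cdh17 were named after their values were seen. Promoter sequences came from RefSeq.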

Additional observations from a re-analysis of the deposited data

Results flagged for a closer look

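In 111 sets of values of the 6 FP-low arrays, of named genes and list means, 7 held 1 array whose gap to the nearest other exceeded Dixon's limit, and chance gives about 1 in 20. Sptssb was at 4.90 in FP-low replicate 1 and at 3.03 to 3.48 in the other 5 arrays. S100a6 was at 4.09 in FP-low replicate 2 and at 5.87 to 6.88 in the others. FP-low replicate 6 stood apart for Xist (8.74, against 2.34 to 3.46) and Eif2s3y (2.07, against 5.21 to 6.87).

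Relative to the FP-low mean, the list mean of the BMP and TGF-beta pathway was -0.10 in FP-low replicate 3 and -0.01 to 0.05 in the others. That of mitosis genes was -0.43 in FP-low replicate 5 and 0.01 to 0.22 in the others. That of ribosome biogenesis was 0.37 in FP-low replicate 4 and -0.14 to 0.00 in the others.

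When all probe sets were tested, 184 of the 12146 with no gene symbol were called between adenomas and FP-low epithelium, 147 higher and 37 lower. They carry no gene name here and entered no other result.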

How the results depend on the processing

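Against 243 calls (185 higher, 58 lower), 152 were made among probe sets with a mean log2 level above 5 (104 higher), 449 over all probe sets (321 and 128), 120 with all 13 arrays (116 and 4), 534 with array weights (352 and 182), 58 against a null of 1.5-fold (55 and 3) and 27 with the term for high Xist (19 and 8). Fewer or more probe sets were tested in the first and the second; the cause of the other shifts was not tested. Quantile normalization gave 282 calls, median centring 231 and the trended robust variance 266. Leaving out each array in turn gave 107 to 331 calls, 96 to 232 higher and 11 to 99 lower. With the replicate number as a block there were 23 calls (20 higher, 3 lower). Arrays of the same number share only a number: their deviations correlated at r = -0.11 to 0.07, against -0.09 to 0.11 for other pairs.

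No called probe set changed sign under any of these. As the groups do not overlap in any called probe set, leaving out an array or the term for high Xist could not change a sign. Of 83 called genes followed singly, 37 kept their call without each array in turn, 81 under quantile normalization and 81 under median centring. Fewer kept it in other fits: 50 with all 13 arrays, 35 against a null of 1.5-fold and 10 with the replicate block. All 83 kept it with array weights, 81 under the trended robust variance and 78 over all probe sets. Scaling changed the sign of the median of 3 of 59 lists, those of tuft cells, B and plasma cells and red blood cells, all near 0. The number of arrays, 3 adenoma and 6 FP-low, limits the precision of every value.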
